A study of Mus musculus with 3 samples.

Results

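The 9 genes described here are bone morphogenetic protein (Bmp) ligands, their receptors and secreted antagonists: Bmp2, Bmp4, Bmp5, Bmp7, Bmpr1a, Bmpr1b, Bmpr2, Grem1 and Nog, which are 9 of the 32285 genes counted. They were chosen by name, and each was followed across cell classes set by marker genes and across 3 embryonic stages. The samples were labelled as palates of wild-type C57BL/6J mouse embryos, with no transgene or treatment, taken at E13.5, at E14.5 or at E15.5, embryonic days over which the palatal shelves grow, lift and meet. At each stage tissue from 3 embryos was pooled into 1 single-cell RNA library after TrypLE dissociation and methanol fixation, so no spread between embryos can be measured. A difference between stages is therefore given as both values with a counting interval and no test, and stage and library cannot be told apart.

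Bmp ligands are secreted dimers that bring together type I receptors, such as Bmpr1a and Bmpr1b, and type II receptors, such as Bmpr2. The type I receptor then phosphorylates Smad1, Smad5 and Smad9, which enter the nucleus with Smad4 and switch on target genes such as the Id genes. Noggin, the product of Nog, and gremlin, the product of Grem1, bind ligands outside the cell and keep them from their receptors. In the palate, Bmp signalling between epithelium and mesenchyme is known to support mesenchymal growth and bone formation, and Bmpr1b is known for its place in early cartilage.

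The 3 libraries held 4236, 2079 and 3113 barcodes in order of stage, with median UMIs (unique molecular identifiers, counts of captured RNA molecules) between 1614 and 1735 per barcode. After cells under 500 detected genes and likely doublets were left out, 3583, 1750 and 2584 cells remained, and libraries shared 5 barcodes in all. A cell was placed in a class when at least 3 of that class's markers had a UMI and the share of its markers detected was at least 1.5 times that of any other class. The E13.5 library stood apart in its make-up: 42.7% of its cells (95% exact binomial interval 41.1 to 44.3) carried neuronal markers, against 5.49% and 5.57% at the later stages. The labels call all 3 samples palatal shelves; whether tissue other than palate entered the E13.5 library was not tested, so its levels, those of lineage cells included, describe the cells of that library. The mesenchymal lineage, the mesenchymal, chondrogenic and osteogenic classes together, made up 11.7% of cells at E13.5 (420 cells), then 66.1% at E14.5 (1156 cells) and 66.8% by E15.5 (1725 cells). The epithelial class held 50, 67 and 160 cells. In all 26.6% of cells entered no class. The 11 neuronal markers summed to 430 CPM (UMIs per 1000000) in lineage cells at E13.5, then 257 at E14.5 and 241 by E15.5, with none of them at 0, and to between 5050 and 6687 in neuronal cells.

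All levels below are CPM: a gene's UMIs summed over the cells of a class, per 1000000 UMIs of those cells. Intervals are 95% exact Poisson intervals for a level and exact conditional intervals for a ratio, and both cover counting error only. Where a class had 0 UMIs of a gene, the level that this allows is that of 3 UMIs, which is below the upper end of the exact Poisson interval. Receptors were the better counted members, with 3747 UMIs over all kept cells for Bmpr1a, 3871 for Bmpr2 and 2464 for Bmpr1b. The ligands gave 239 (Bmp7) to 420 UMIs (Bmp5), Grem1 gave 93 and Nog 87. The lineage held 74.2% to 76.0% of the UMIs of Bmp2, Bmp4, Bmp5 and Grem1, but 30.4% of those of Bmpr1b. Cells in no class held 46.2% of the Bmpr1b UMIs. Bmp4, Bmp5 and Bmpr1a overlap annotated genes on the other strand, and how the authors' counting treated strand is not given in the sources used here.

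Bmpr1b, a type I receptor on chromosome 3 (GRCm38, 141837136 to 142169425, minus strand, with no annotated gene overlapping it), had the steepest stage difference of the 9 in the mesenchymal lineage. It stood at 257 CPM at E13.5 (285 UMIs, interval 228 to 289), then 83.5 at E14.5 (246 UMIs, 73.4 to 94.7) and 43.9 by E15.5 (217 UMIs, 38.2 to 50.1). No interval overlapped another, and each stage was below the one before it. The E15.5 level was 0.171 of the E13.5 level (0.142 to 0.204), or -2.52 on the log2(CPM + 1) scale. E14.5 over E13.5 gave a ratio of 0.325 (0.273 to 0.387), and E15.5 over E14.5 was 0.525 (0.435 to 0.633). The order of the stages was kept in 3 of the 4 ways of holding the make-up of the lineage fixed. In the remaining one, with 4 clusters at their E13.5 mix, E14.5 was the highest stage. Without cells that had a UMI of any neuronal marker, lineage Bmpr1b was 247 CPM at E13.5, then 57.8 at E14.5 and 32.9 by E15.5, so the difference was at least as large among cells with no neuronal UMI.

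Placed by cell type, both large classes of the lineage were lower at E15.5. In chondrogenic cells, those with markers such as the cartilage collagen Col2a1, Bmpr1b was 470 CPM at E13.5 (179 UMIs in 126 cells, 404 to 544), then 191 at E14.5 (87 UMIs in 120 cells, 153 to 236) and 89.4 by E15.5 (27 UMIs in 67 cells, 58.9 to 130). In the remaining mesenchymal cells it was 148 at E13.5 (106 UMIs in 292 cells, 122 to 180), then 64.9 at E14.5 (159 UMIs in 1025 cells, 55.2 to 75.7) and 40.5 by E15.5 (185 UMIs in 1645 cells, 34.9 to 46.8). Chondrogenic cells were above mesenchymal cells in each library, and the gap narrowed in CPM with stage. The E15.5 over E13.5 ratio was 0.190 in chondrogenic cells (0.122 to 0.286) and 0.273 in mesenchymal cells (0.214 to 0.350), and these intervals overlap. The chondrogenic class also drew on different clusters: the cartilage-led cluster 20 held 51.6%, 52.5% and 44.8% of it in order of stage, while cluster 6 held 34.1% at E13.5 and cluster 9 held 14.9% by E15.5. The epithelial cluster 1 held 9.17% of the class at E14.5, and the neuronal cluster 4 held 4.76% at E13.5. Chondrogenic cells in cluster 20 alone were at 749, 381 and 201 CPM. The osteogenic class held 2, 11 and 13 cells and is not compared. With 2 osteogenic markers as the requirement, Bmpr1b there was 60.4 CPM at E14.5 (44 cells) and 59.2 by E15.5 (67 cells).

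**Figure D1:**
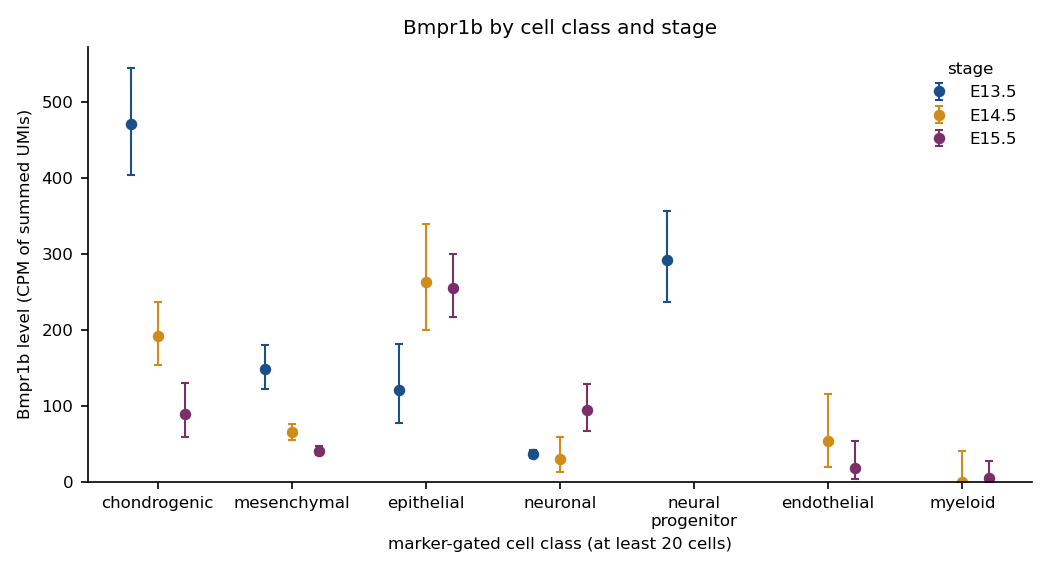
Bmpr1b level (CPM of summed UMIs, y axis) in each marker-gated class with at least 20 cells (x axis), with E13.5 in blue, E14.5 in orange and E15.5 in purple. Bars are 95% exact Poisson intervals. Chondrogenic and mesenchymal points step down from 470 to 89.4 and from 148 to 40.5, while the epithelial points go from 121 to 255.

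The make-up of the lineage also differed between stages. Chondrogenic cells were 126 of 420 lineage cells at E13.5, 10.4% of them at E14.5 and 3.88% by E15.5, and they held 62.8%, 35.4% and 12.4% of the lineage's Bmpr1b UMIs. Of the 213 CPM by which the lineage level was lower at E15.5, the chondrogenic class accounted for 156 CPM (73.2%) and the mesenchymal class for 58.3 CPM (27.3%). Divided the other way, the lower level within classes accounted for 75.3% of the difference and the class shares for 24.7%. That last value is a net of 37.0% from the smaller chondrogenic share and -12.3% from the larger mesenchymal one. Both classes drew on different clusters at E13.5 and later, so the part within classes also holds differences in make-up. The 2 were not separated in this division. With the class mix held at that of E13.5 the levels were 257, 108 and 57.5 CPM in order of stage, a log2 difference of -2.14, and with that of E15.5 they were 166, 71.6 and 43.9 CPM, a difference of -1.89. Without chondrogenic cells it was -1.81. Such shares describe what was captured, since pooled dissociated tissue does not show how many cartilage cells each palate had.

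At E13.5 Bmpr1b was higher in lineage cells that carried more chondrogenic markers, a grading made after the class levels were known. There it was 117 CPM in cells with no chondrogenic marker (206 cells), 184 with 1 marker, 228 with 2, 367 with 3 or 4, and 518 with 5 or more (76 cells). At E14.5 only the cells with 5 or more markers stood clear of the rest, at 286 CPM (225 to 359) against 31.6 to 78.0 in the other 4 steps. At E15.5 cells with 5 or more markers were at 165 CPM (104 to 247), and the other steps lay between 24.6 and 79.0. All 5 steps were lower by E15.5, including the cells with no chondrogenic marker, which went from 117 (87.3 to 152) to 37.0 (30.2 to 44.8). Deeper cells can show more markers. Median UMIs at E13.5 were 1712.5, 2718, 2388, 1668 and 2902 in order of the 5 steps, so they did not rise step by step. The part of depth in the gradient was not tested.

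Clustering without the Bmp pathway genes gave 26 clusters, of which 4 lineage clusters had at least 20 cells at each stage, and all 4 were lower in Bmpr1b by E15.5. Cluster 20, led by the cartilage genes Col2a1 and Matn1, was at 714 CPM at E13.5 (67 cells), then 378 at E14.5 (64 cells) and 201 by E15.5 (30 cells). Cluster 6, led by Ptgds, Ccl21a, Foxp2, Gpr20 and Otor, was at 273, 453 and 125 CPM, so its level was highest at E14.5. Gated mesenchymal cells of cluster 6 were at 178 (137 to 228), 563 (411 to 754) and 138 CPM (80.4 to 221). Their E13.5 and E15.5 intervals thus overlapped. Those of gated mesenchymal cells in clusters 5 and 14 did not (115 against 7.20 and 106 against 8.12 CPM). Cluster 14, led by the division genes Top2a and Prc1, was at 99.0, 62.1 and 6.90 CPM. Cluster 5, led by the bone sialoprotein gene Ibsp, was at 87.3, 26.5 and 7.69 CPM. The mesenchymal class was drawn from other clusters at E13.5 than later: cluster 6 held 51.7% of it at E13.5, while clusters 5, 9, 21 and 22 were its 4 largest at both later stages. Cluster 5 held 19.2%, 21.2% and 19.8% of the class in order of stage. Cluster 9, led by Pgm5, Gpc5 and Itga8, held 15.2% at E14.5 and 21.6% by E15.5. Cluster 9 had Bmpr1b at 10.6 CPM at E14.5 and 12.9 by E15.5, and it had too few cells at E13.5. Cluster 10, led by Klhl1 and Rspo2, was at 78.4 and 94.4 CPM at those 2 stages, above cluster 9 with no overlap of intervals. The 4 shared clusters covered 93.7%, 42.4% and 33.2% of the lineage in order of stage. With their mix held at that of E13.5 the log2 difference was -1.46, the smallest of the 16 alternatives tried, and with that of E15.5 it was -2.24. With the cluster mix of E13.5 the stage levels were 276, 326 and 100 CPM, so E14.5 was then above E13.5, and with that of E15.5 they were 151, 97.9 and 31.3 CPM.

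**Figure D2:**
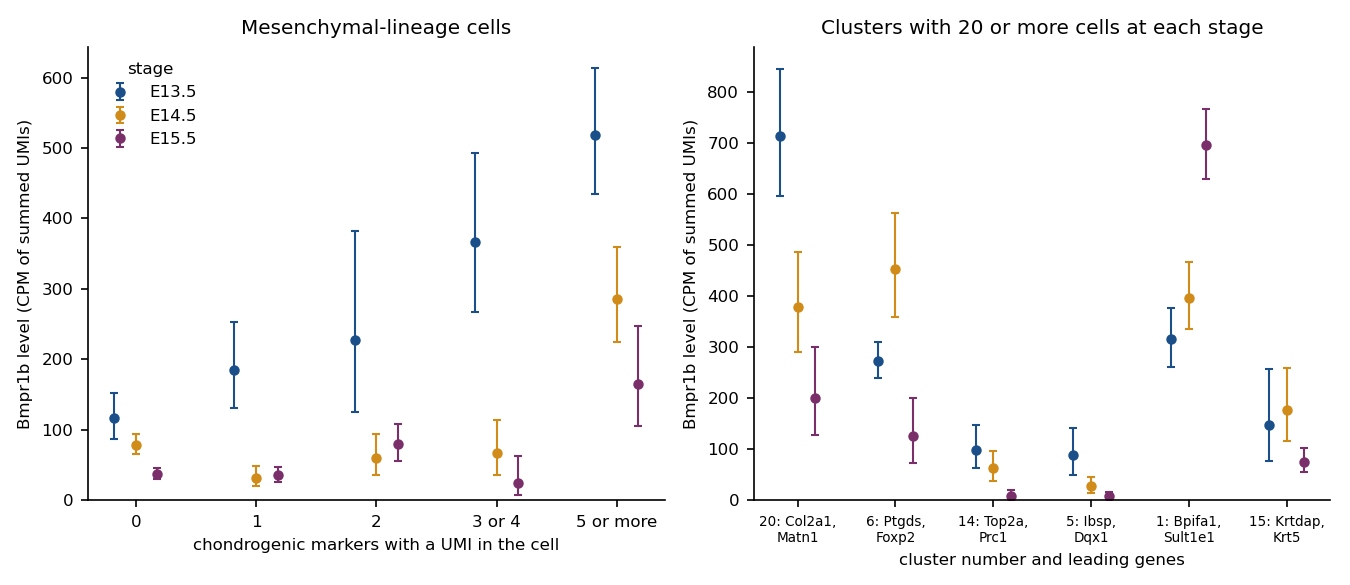
Left, Bmpr1b level (CPM, y axis) in mesenchymal-lineage cells by the number of chondrogenic markers with a UMI (x axis). Right, the same in the 4 lineage and 2 epithelial clusters with at least 20 cells at each stage, labelled by cluster number and leading genes. Colours mark the stages and bars are 95% exact Poisson intervals; in the left panel the 5-or-more step is the highest at each stage (518, 286 and 165).

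Cell by cell, with every cell thinned to 1500 UMIs and shallower cells left out, Bmpr1b had a UMI in 24.1% of lineage cells at E13.5 (69 of 286), then 7.37% at E14.5 (53 of 719) and 4.16% by E15.5 (46 of 1106). Unthinned, the later shares were 9.95% and 5.68%, and 126 of 420 cells had a UMI at E13.5. In endothelial and myeloid cells as 1 group, which serve as a comparison for free RNA, the thinned shares were 0% (0 of 12 cells, interval up to 26.5%), 5.66% (3 of 53, 1.18 to 15.7%) and 1.28% (1 of 78, 0.03 to 6.94%), at median depths of 1890 to 2116 UMIs against 1880 to 2147 in the lineage. The lineage shares thus lay within the interval of those cells at all 3 stages, and for the lineage as a whole expression above background was not detectable by this measure; at E13.5 only 12 such cells could be compared. Chondrogenic cells had thinned shares of 41.9%, 17.2% and 13.46%, and at E13.5 their interval (31.8 to 52.6%) lay above that of the endothelial and myeloid cells. The share in chondrogenic cells at E14.5 and E15.5 was above the point value of the endothelial and myeloid cells but its interval overlapped theirs (9.98 to 26.8% and 5.59 to 25.8%). These shares followed the order of the CPM levels.

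In the epithelium E13.5 was the lowest stage, not the highest. Bmpr1b stood at 121 CPM at E13.5 (23 UMIs, 76.6 to 181), then 263 at E14.5 (58 UMIs, 199 to 339.5) and 255 by E15.5 (153 UMIs, 216 to 299). The 2 later stages overlapped, and both lay above E13.5. With cluster-based classes the E14.5 over E13.5 log2 ratio was 0.07 and that of E15.5 over E13.5 was 0.34, so most of the difference was lost. E15.5 over E13.5 gave a ratio of 2.11 (1.36 to 3.43). The thinned share of epithelial cells with a UMI was 9.09%, 18.5% and 23.1%, with intervals that overlapped. The epithelial class joined 2 clusters that differed in Bmpr1b. Cluster 1, led by Bpifa1, which encodes a secreted airway protein, was at 315 CPM at E13.5 (262 to 376), then 397 at E14.5 (335 to 466) and 696 by E15.5 (630 to 768). Cluster 15, led by the keratin genes Krt5, Krt15 and Krt13 and by Krtdap, was at 147 (76.0 to 257), 177 (116 to 260) and 75.5 (54.6 to 102). Cluster 1 was the higher of the pair at each stage, and its stage order ran upward, whereas cluster 15 was lowest at E15.5.

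A split of gated epithelial cells by the basal keratinocyte genes Krt5, Krt14 and Trp63, made after these levels were seen, also gave 2 sides that differed, in the same rank at each stage. Cells with a UMI of any of the 3 were at 48.4, 176 and 154 CPM, and cells with none were at 156, 376 and 411 CPM. At E15.5 the intervals of the sides did not overlap (116 to 200 against 333 to 501). Much Bmpr1b of cells outside all classes belonged to cluster 1 too: 14.4% of the ungated Bmpr1b UMIs at E13.5, then 41.3% at E14.5 and 79.2% by E15.5, where 74 ungated cells stood at 807 CPM. At E13.5 the ungated UMIs lay more in cluster 4, led by Sntg1 and Egfem1 with neuronal markers (40.0%), in cluster 11, led by Adgrv1 with neural progenitor markers (19.6%), and in cluster 6, the main source of gated mesenchymal cells at that stage (19.0%, 348 CPM in 160 ungated cells).

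In neuronal cells Bmpr1b was 36.0 CPM at E13.5 (30.6 to 42.0), then 29.9 at E14.5 (12.9 to 58.9) and 94.1 by E15.5 (66.9 to 129), and in neural progenitors at E13.5 it was 292 (236 to 356). The neuronal class was drawn from different clusters at E13.5 and later, with cluster 16, led by Fstl5, holding most of it at the later stages. Neuronal levels also depended on the gate. With a margin of 2 they were 24.8 CPM at E13.5 and 18.9 by E15.5, and with no margin 58.5 and 207. Thinned neuronal cells were at 65.4 CPM at E15.5. The unthinned share of neuronal cells with a UMI was 5.95% at E13.5 and 5.56% by E15.5. Endothelial cells were at 53.1 and 18.2 CPM at E14.5 and E15.5, and myeloid cells had 0 UMIs at E14.5, which allows up to 32.5 CPM, and 1 UMI at E15.5 (4.84 CPM). Glial cells at E15.5 had 0 UMIs, which allows up to 44.8 CPM. Over all kept cells together Bmpr1b was at 117, 109 and 93.7 CPM in order of stage. Ordered by the mean of the 3 libraries, chondrogenic cells came first at 250 ± 197 CPM (SD, n = 3), then epithelial at 213 ± 79.8, mesenchymal at 84.6 ± 56.6 and neuronal cells at 53.3 ± 35.5, and each neighbour in that order overlapped the next.

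Bmpr1a (chromosome 14, 34410734 to 34503341, minus strand), the other type I receptor, was at like levels at the earliest and latest stage in the lineage and lowest at the middle one: 210 CPM at E13.5 (233 UMIs, 184 to 239), then 175 at E14.5 (515 UMIs, 160 to 191) and 211 by E15.5 (1042 UMIs, 198 to 224). Its E15.5 over E13.5 ratio was 1.00 (0.868 to 1.16), an interval that leaves out differences of the size seen for Bmpr1b. Mesenchymal cells were at 242, 180 and 214 CPM and chondrogenic cells at 158, 147 and 182, lower in each of the 3 libraries. Epithelial cells stood at 131, 163 and 178 CPM and neuronal cells at 110, 105 and 142. Endothelial cells had 0 Bmpr1a UMIs at E14.5 and at E15.5, which allows up to 26.6 and 18.2 CPM. Myeloid cells were at 32.5 and 24.2 CPM from 3 and 5 UMIs.

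Bmpr2 (chromosome 1, 59763400 to 59879014, plus strand), the type II receptor, was counted in all of these classes, endothelial cells included. Lineage cells were at 152 CPM at E13.5 (130 to 176), then 163 at E14.5 (149 to 178) and 189 by E15.5 (177 to 201), a ratio of 1.25 (1.06 to 1.48). In chondrogenic cells it was 152, 149 and 215 CPM, in epithelial cells 94.5, 163 and 128, and in neuronal cells 174, 172 and 191. Endothelial cells, which had no Bmpr1a UMI, were at 239 CPM at E14.5 (158 to 348) and 219 by E15.5 (153 to 303). Ordered by the mean of the 3 libraries, neuronal cells came first at 179 ± 10.2 (SD, n = 3), then chondrogenic at 172 ± 37.1, mesenchymal at 168 ± 18.1 and epithelial cells at 129 ± 34.2, and each neighbour in that order overlapped the next.

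Among the ligands, Bmp2, Bmp4 and Bmp5 were found mostly in the lineage. For these 3 genes the levels of mesenchymal and of chondrogenic cells in the 3 libraries did not overlap those of gated epithelial or neuronal cells. At E14.5 the endothelial and myeloid group had a Bmp2 UMI in 2.38% of unthinned cells (0.29 to 8.34), against 5.88% in the lineage. Bmp4 gave 2.38% and 5.36%, and Bmp5 gave 0% and 6.49%. Bmp2 (chromosome 2, 133552159 to 133562885, plus strand) was 22.6 CPM at E13.5 (14.6 to 33.3), then 28.2 at E14.5 (22.4 to 34.9) and 20.4 by E15.5 (16.6 to 24.8) in lineage cells, with overlapping intervals. In epithelial cells Bmp2 had 0 UMIs at E13.5 and E14.5, which allows up to 15.8 and 13.6 CPM, and 8 UMIs at E15.5 (13.3 CPM, 5.76 to 26.3). Of these 8 UMIs, 7 were in cells with a Krt5, Krt14 or Trp63 UMI. Bmp4 (chromosome 14, 46383520 to 46390669, minus strand), a ligand of the same subgroup as Bmp2, was 21.7, 26.2 and 25.5 CPM in lineage cells, again with overlapping intervals, and gated epithelial cells had 0, 0 and 2 UMIs. The Bpifa1-led cluster 1, part of it outside the gate, had 15 Bmp4 UMIs at E14.5 (40.5 CPM, 22.6 to 66.7) against 2 and 1 at the other stages, so with cluster-based classes epithelial Bmp4 at E14.5 was 26.0 CPM. In chondrogenic cells Bmp4 was 7.88 CPM at E13.5 (3 UMIs), then 28.6 at E14.5 (13 UMIs) and 13.2 by E15.5 (4 UMIs).

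Bmp5 (chromosome 9, 75775364 to 75900310, plus strand), a ligand known for its place in early cartilage, was lower at the later stages. Its lineage level was 55.0 CPM at E13.5 (61 UMIs, 42.1 to 70.7), then 41.4 at E14.5 (122 UMIs, 34.4 to 49.5) and 26.7 by E15.5 (132 UMIs, 22.3 to 31.6), and E13.5 and E15.5 did not overlap. The ratio was 0.485 (0.355 to 0.668). Chondrogenic cells were at 94.6, 28.6 and 56.3 CPM and mesenchymal cells at 35.0, 44.5 and 24.5. Within each class the interval of the E15.5 over E13.5 ratio reached 1 (0.313 to 1.09 in chondrogenic and 0.451 to 1.13 in mesenchymal cells). With the class mix held at that of E13.5 the log2 difference was -0.62, against -1.02 as measured, so the smaller chondrogenic share moved with it. Epithelial cells had 0, 0 and 1 Bmp5 UMIs.

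Bmp7 (chromosome 2, 172868012 to 172940321, minus strand), a ligand of the same subgroup as Bmp5, was counted at each stage in both the lineage and the epithelium. Lineage cells were at 23.5 CPM at E13.5 (15.3 to 34.4), then 13.9 at E14.5 (9.99 to 18.9) and 11.5 by E15.5 (8.73 to 14.9), a ratio of 0.491 (0.304 to 0.814), and mesenchymal cells alone gave 0.478 (0.272 to 0.883). Epithelial cells stood at 26.3 CPM at E13.5 (5 UMIs), then 22.6 at E14.5 (5 UMIs) and 26.7 by E15.5 (16 UMIs). In the epithelium Bmp7 lay on the opposite side of the keratin split from Bmpr1b: at E15.5 cells with a Krt5, Krt14 or Trp63 UMI were at 38.5 CPM (21.05 to 64.6) and cells with none at 8.47 (1.03 to 30.6), intervals that overlap.

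**Figure D3:**
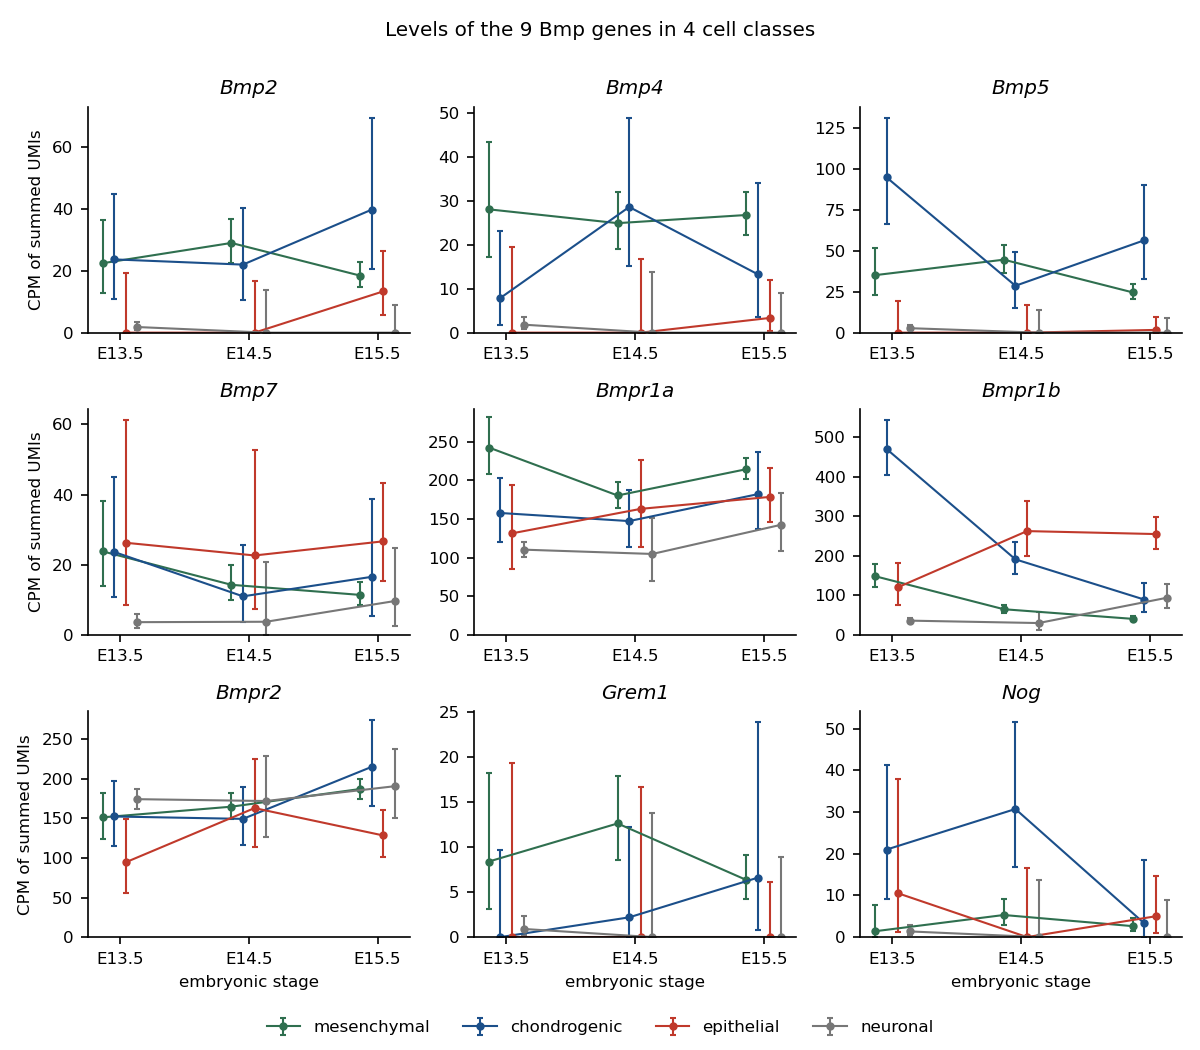
Level (CPM of summed UMIs, y axis, a separate scale per gene) of each of the 9 genes at the 3 stages (x axis) in mesenchymal, chondrogenic, epithelial and neuronal cells. Lines join the stages of a class and bars are 95% exact Poisson intervals. Bmp2, Bmp4 and Bmp5 are below their lineage levels in epithelial and neuronal cells, with epithelial Bmp2 at 13.3 by E15.5, Bmp7 is near 25 in epithelial cells at each stage, and Bmpr1b crosses over, with chondrogenic cells highest at E13.5 and epithelial cells highest at E14.5 and E15.5.

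The antagonists were too sparse for more than a coarse picture. Nog (chromosome 11, 89300638 to 89302332, minus strand) was counted in chondrogenic cells, with 8 UMIs at E13.5 (21.02 CPM, 9.07 to 41.4), then 14 at E14.5 (30.8 CPM, 16.8 to 51.6) and 1 by E15.5 (3.31 CPM, 0.08 to 18.4). Mesenchymal cells had 1, 13 and 12 UMIs, or 1.40, 5.30 and 2.63 CPM. Chondrogenic cells were above mesenchymal cells in 3 of 3 libraries, by less than the counting error at E15.5. E15.5 over E13.5 in the lineage gave a ratio of 0.324 (0.128 to 0.858), a log2 difference of -1.33, but without chondrogenic cells it was 0.59, from 1 UMI at E13.5 and 12 by E15.5. Grem1 (chromosome 2, 113746164 to 113758646, minus strand) was found in mesenchymal cells at 8.41 CPM (6 UMIs), 12.6 (31 UMIs) and 6.36 (29 UMIs). Chondrogenic cells had 0, 1 and 2 Grem1 UMIs and epithelial cells none, which allows up to 15.8, 13.6 and 5.00 CPM.

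Counted together, 0 of the 9 genes were at least 2-fold higher and 3 were at least 2-fold lower in the lineage (E15.5 over E13.5) on the log2(CPM + 1) scale: Bmpr1b, Bmp5 and Nog. Bmp7 was just short of that limit, at -0.97 (a CPM ratio of 0.491). Among all 11519 genes at a mean of 5 CPM or more, 10.4% were at least 2-fold higher and 5.21% lower, and the median log2 ratio was -0.03 against -0.14 for the 9 genes. Without chondrogenic cells the count of lower genes was 1, Bmpr1b, with Bmp5 at -0.46 and Nog at 0.59. With the class mix of E15.5 it was also 1, with Bmp5 at -0.50 and Nog at 0.02, whereas with that of E13.5 it was 2, Bmpr1b at -2.14 and Nog at -1.25, with Bmp5 at -0.62. In the epithelium 5 of the 9 genes reached that mean level, of which 1 (Bmpr1b) was at least 2-fold higher and 0 lower. Of all 11585 such genes 22.0% were at least 2-fold higher there and 11.9% lower, so a share of 1 in 5 is near the background. These epithelial shares rest on 50 cells at E13.5.

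**Figure D4:**
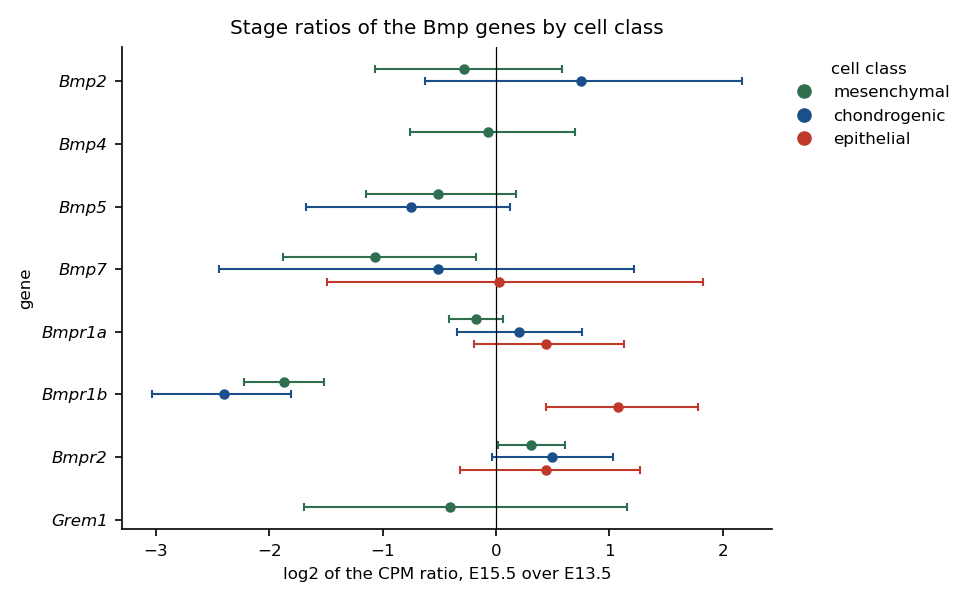
Log2 of the CPM ratio of E15.5 to E13.5 (x axis) for each gene (y axis) in mesenchymal, chondrogenic and epithelial cells, with 95% exact conditional intervals. Genes with under 5 UMIs at either stage of a class are not drawn, which leaves out Nog. Bmpr1b is to the left of 0 in mesenchymal and chondrogenic cells and to the right in epithelial cells, while the intervals of Bmpr1a include 0 in all 3 classes.

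Differences between classes could be tested over the 3 libraries, which serve as the replicates, with the stage as a block (edgeR quasi-likelihood test, Benjamini-Hochberg adjustment over 8485 genes). Of the 9 genes 7 passed the filter on low counts, and Grem1 and Nog did not. Against mesenchymal cells, 0 of the 7 were called in chondrogenic cells, where 0.79% of all genes were called higher and 0.189% lower. At an unadjusted p under 0.05 there were 2, Bmpr1b higher and Bmpr1a lower, and DESeq2 also called 0. Bmpr1b averaged 250 ± 197 CPM (SD, n = 3) in chondrogenic and 84.6 ± 56.6 in mesenchymal cells and was higher in 3 of 3 libraries. The log2 difference of 1.61 (SE 0.56) had an edgeR adjusted p of 0.334, with 1.26e-06 to 1.00 over 9 alternatives. Bmpr1a had a log2 difference of -0.39 (SE 0.18, edgeR adjusted p = 0.512) and was lower in 3 of 3 libraries.

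In epithelial cells 2 of the 7 were called, both lower than in mesenchymal cells, where 14.2% of all genes were higher and 14.6% lower. They were Bmp5, with a log2 difference of -4.93 (SE 0.93, edgeR adjusted p = 0.00188), and Bmp4, with -3.70 (SE 0.83, edgeR adjusted p = 0.00545), each lower in 3 of 3 libraries. The Bmp4 call was lost without the E15.5 library (log2 difference -7.87 with no epithelial UMI left, so no bound; edgeR adjusted p = 0.0650) and with cluster-based classes (-1.54, adjusted p = 0.0820), over a range of 2.33e-05 to 0.0820 in 8 alternatives. Bmpr1b averaged 213 ± 79.8 CPM in epithelial cells and was higher than in mesenchymal cells in 2 of 3 libraries. Its log2 difference of 1.61 (SE 0.59) missed the threshold (edgeR adjusted p = 0.0574), over a range of 2.29e-06 to 0.381 in 9 alternatives. It was past the threshold without the E13.5 library (2.30, adjusted p = 0.000109), with cluster-based classes (0.0126), with 1 more marker needed (0.0325) and with no filter on low counts (2.29e-06). Bmp2 had a log2 difference of -1.72 (edgeR adjusted p = 0.0938), and it was past the threshold with cluster-based classes (-2.28, adjusted p = 0.00719) and with no filter (-1.84, adjusted p = 0.0184), over a range of 0.00719 to 0.400 in 7 alternatives. Bmp7 had a log2 difference of 0.73 (SE 0.45, edgeR adjusted p = 0.256) and was higher in 3 of 3 libraries. Bmpr1a and Bmpr2 were each lower in 3 of 3 libraries, by 0.41 and 0.39 on the log2 scale, at edgeR adjusted p-values of 0.117 and 0.182.

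In neuronal cells 5 of the 7 were called lower and 0 higher, where 19.2% of all genes were higher and 17.8% lower. The log2 differences were -4.12 for Bmp5, -3.79 for Bmp4, -3.62 for Bmp2, -1.71 for Bmp7 and -0.68 for Bmpr1a, with edgeR adjusted p-values of 0.00023, 0.00067, 0.0022, 0.0211 and 0.00917. Each was lower in 3 of 3 libraries. Without the E14.5 library the log2 differences of Bmp7 and Bmpr1a were -1.69 and -0.78, but the calls were lost (edgeR adjusted p = 0.116 and 0.0691). The Bmp7 call was also lost with cluster-based classes (-1.23, edgeR adjusted p = 0.123). The alternatives gave adjusted p-values over ranges of 0.0140 to 0.123 for Bmp7 and 0.00274 to 0.0691 for Bmpr1a. Bmpr1b and Bmpr2 were not called, with log2 differences of -0.43 and 0.27. The call counts rest on few libraries: in epithelial cells 1 of the genes was called without E15.5, and in neuronal cells 3 were called without E14.5 and 3 without E15.5.

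**Figure D5:**
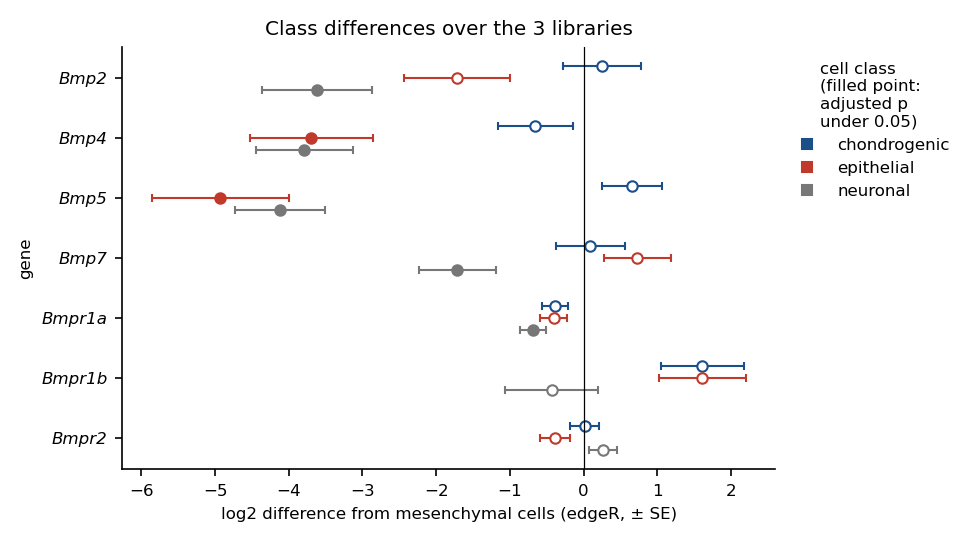
Log2 difference from mesenchymal cells (x axis, edgeR, bars ± SE) of the 7 tested genes (y axis) in chondrogenic, epithelial and neuronal cells over the 3 libraries. Filled points have an adjusted p under 0.05: Bmp4 and Bmp5 in epithelial cells and Bmp2, Bmp4, Bmp5, Bmp7 and Bmpr1a in neuronal cells. All chondrogenic points are open.

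The other genes of the pathway were counted from lists set by name. In lineage cells, 4 of 11 other Bmp and Gdf ligands reached a mean of 5 CPM, of which 1 was higher by 2-fold or more (E15.5 over E13.5) and 2 were lower, where 10.4% of all genes were higher and 5.21% lower. Bmp3, a ligand that opposes bone formation, was at 9.93 and 28.9 CPM, Gdf11 at 25.3 and 10.5, and Gdf10 at 36.1 and 17.4. On the log2(CPM + 1) scale used for these counts none of 7 other receptors was past 2-fold in either direction, though Acvr2b, at 23.5 and 11.5 CPM, had a CPM ratio of 0.491. Of 11 other antagonists and extracellular modulators 3 were higher and 1 lower, beside the same 10.4% and 5.21% of all genes, with a median log2 ratio of 0.82 against -0.03 over all genes, and 10 of the 11 lay above 0. Chrdl1, a chordin-like antagonist, was at 7.22 and 37.4 CPM, Dand5 at 9.93 and 23.2, the protease gene Tll1 at 16.2 and 35.0, and Bmper, a binding modulator of Bmps, at 169 and 79.4. Of 6 Smad genes 1 was higher, the inhibitory Smad6 at 21.7 and 53.6 CPM. Of 9 target genes 1 was higher (Smad6) and 2 lower, Hey1 at 22.6 and 8.29 CPM and Id1 at 84.8 and 40.8 CPM, with a median of -0.32.

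In epithelial cells the target genes were mostly lower at E15.5: 5 of 9 were at least 2-fold lower and 0 higher, with a median log2 ratio of -1.34 against 0.07 over all genes, of which 11.9% were lower and 22.0% higher by that much. Id3 was at 315 CPM at E13.5 and 60.0 by E15.5, Id1 at 305 and 113, Id2 at 226 and 63.4, and Hey1 at 63.0 and 13.3. The Id genes encode inhibitors of differentiation factors. The make-up of the class differed too: cluster 1 held 66.0% of it at E13.5 and 31.3% by E15.5, and cluster 15 held 24.0% and 61.3%, and the part of this in the epithelial values was not tested. Of 4 other ligands, 1 was higher and 2 lower. Bmp6 had 0 UMIs at E13.5 and 70 by E15.5 (117 CPM), and the exact conditional interval of the ratio starts at 5.87 (7.41 if 3 UMIs are taken as the limit at E13.5). Its 70 UMIs came from 19 of 160 cells, 24 of them from 1 cell. The 2 lower ligands had few UMIs: Bmp3 had 1 at either stage, and Gdf11 had 4 and 6. Of 9 antagonists and modulators 4 were higher and 1 lower, so the lower share is near the 11.9% of all genes. The Bmp and Wnt modulator Sostdc1 was at 31.5 and 102 CPM and the activin-binding follistatin gene Fst at 21.01 and 58.4, while Dand5 had 0 and 6 UMIs and Bmper 3 and 0. Smad5 was at 26.3 and 80.0 CPM, and Smad9 had 1 UMI at either stage. None of 6 other receptors was past 2-fold.

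Between classes, the same lists were tested in the edgeR fit. In epithelial against mesenchymal cells 7 of 11 tested antagonists and modulators were called lower and 0 higher, beside 14.6% of all genes lower and 14.2% higher. In neuronal cells 8 of 11 were called lower, beside 17.8% of all genes. Of 7 tested target genes in epithelial cells 1 was called higher, Id1 with a log2 difference of 1.86, and 2 lower, Msx1 with -2.22 and Smad7 with -1.21. In chondrogenic cells 1 antagonist, Sostdc1 (log2 difference -2.35, edgeR adjusted p = 0.0466), and 1 target, the homeobox gene Msx1 (-1.94, adjusted p = 0.0143), were called, both lower, beside 0.189% of all genes lower and 0.79% higher. Of 5 tested receptors 1 was called higher in epithelial cells, the activin receptor Acvr2a, and 3 higher and 1 lower in neuronal cells, beside 19.2% and 17.8% of all genes.

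For the 7 members with at least 100 UMIs, which leaves out Grem1 and Nog, the genes whose levels followed them most closely were sought over 19 groups of class and stage, among 12328 genes, by the Pearson correlation of log levels; groups of 1 stage share a library, so the values are a description. Bmp2 and Bmp4 resembled each other (r = 0.901), and Vasn came above Bmp4 for Bmp2 (0.918), while Gmds (0.883) and Il11ra1 (0.855) followed for Bmp4. Bmp5 was nearest to Pdzrn4 (0.920), then to Gm16183 (0.908) and to the fibronectin gene Fn1 (0.901). Bmp7 was nearest to the genes Cobl (0.909), Frk (0.883) and Baiap2l1 (0.876). Bmpr1a was nearest to Pcdh11x (0.946), Bmpr1b to Stxbp6 (0.938), 4930453N24Rik (0.898) and Pcp4 (0.892), and Bmpr2 to Hmbox1 (0.923). Bmpr1b and Bmp2 were nearly unrelated over these groups (0.110).

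Along the palate, Shox2 marks the anterior mesenchyme and Meox2, Tbx22 and Barx1 mark the posterior. Lineage cells thinned to 1500 UMIs were divided into those with a UMI of Shox2 only and those with a UMI of the posterior genes only: 100 and 127 cells at E14.5, 226 and 161 by E15.5. At E13.5 there were 14 and 65 cells, too few to compare. In thinned cells Bmpr1b had lower point values on the Shox2 side, with 20.0 CPM on the Shox2 side against 68.2 at E14.5 (3 and 13 UMIs, ratio 0.293, 0.054 to 1.07) and 14.7 against 33.1 at E15.5 (5 and 8 UMIs, ratio 0.445, 0.115 to 1.54), and both intervals include 1. Bmpr1a was 213 CPM on the Shox2 side and 105 on the other at E14.5 (ratio 2.03, 1.13 to 3.75), and 251 against 174 at E15.5 (ratio 1.44, 0.985 to 2.14). Summed over cells of any depth the E14.5 log2 difference of Bmpr1a was 0.15 in place of 1.02, and that of Bmpr1b turned from -1.72 to 0.11. Bmp5 had 1 UMI on the Shox2 side and 9 on the other at E14.5 (ratio 0.141, 0.003 to 1.02), and 6 and 4 by E15.5. Bmp2 had 6 and 1 UMIs at E14.5 and 10 and 3 by E15.5, with intervals that include 1 at both stages.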

How the data were processed

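The deposited matrices give whole UMI counts, unnormalized, for each gene in each barcode, made by the authors with Cell Ranger 6.1.2 on mm10, per the submitters' processing notes. Each library held 5293977 to 11472663 UMIs. The 9 genes and the lists were chosen with earlier results of these data known, and all 9 are named; pathway genes are named where past 2-fold, at most 4 a list. Cells with at least 500 genes and at most 20% mitochondrial UMIs were kept. Scrublet's own threshold called 5 doublets, so the highest scores (0.8% per 1000 cells) were left out, 190 cells. Classes came from 14 marker lists by a per-cell gate whose limits (3 markers, 1.5-fold margin) were settled after seeing the data; 27.5% of chondrogenic and 26.4% of epithelial cells had exactly 3 markers. Summed UMIs of classes with 20 cells in each library were tested with edgeR 4.0.16 (filterByExpr, TMM, stage block), with DESeq2 1.42.0 as an alternative. Leiden clusters (scanpy 1.11.5, resolution 1) used 2000 variable genes without Bmp pathway genes. On simulated counts (7896 genes, chondrogenic against mesenchymal) 27% of 2-fold and 78% of 4-fold changes were recovered, with 3 false calls of 108. Gene positions are from GENCODE M21 (GRCm38).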

Additional observations from a re-analysis of the deposited data

Results flagged for a closer look

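The stage difference of Bmpr1b had opposite signs in different classes, and that opposition was not tested, since each stage is 1 library. E15.5 over E13.5 gave a log2 ratio of -1.85 in mesenchymal and -2.38 in chondrogenic cells, but 1.07 in epithelial and 1.36 in neuronal cells. With cluster-based classes the epithelial value was 0.34, the Bpifa1-led cluster 1 being higher at E15.5 and the keratin-led cluster 15 lower. Of gated epithelial cells cluster 1 held 66.0% at E13.5 and 31.3% at E15.5, and cluster 15 held 24.0% and 61.3%. The epithelial level at E13.5 rests on 23 UMIs in 50 cells, and the neuronal class was made of different clusters at E13.5 and later. The neuronal sign depended on the gate. With a margin of 2 over the next class neuronal Bmpr1b was lower at E15.5 (18.9 CPM) than at E13.5 (24.8). With no margin it was 207 CPM at E15.5 and 58.5 at E13.5.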

How the results depend on the processing

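Lineage Bmpr1b was lower at E15.5 in all 16 alternatives. The log2 difference, -2.52 as reported, was -2.22 with no margin between classes, -2.83 with a margin of 2, -2.98 with cells thinned to 1500 UMIs, -2.87 without cells with a neuronal UMI, -2.14 and -1.89 with the class mix of E13.5 or E15.5, -1.81 without chondrogenic cells and -1.46 with the cluster mix of E13.5. The margins and the cluster mix were chosen after seeing the data. Nog reversed to 0.59 without chondrogenic cells. Members called in chondrogenic cells were 0 as reported and 1 (Bmpr1b) with no filter on low counts and with cluster-based classes. In epithelial cells they were 2 as reported, 5 with no filter, and 1 to 3 with a library left out. In neuronal cells they were 5 as reported, 2 with 1 more marker needed, and 3 to 4 with a library left out. Genes called over all genes in chondrogenic cells were 83, but 361 with no filter, 397 with clusters, 134 with 1 more marker, 43 without the stage block, and 24 to 208 with a library left out. In epithelial cells they were 2448, but 1609 without the block, 1078 without E14.5 and 925 without E15.5. In neuronal cells they were 3134, but 2434 without the block, 1830 without E14.5 and 1782 without E15.5. Of 488 stage ratios recomputed 468 stayed within their counting interval. No paired analysis was possible between stages because each stage has 1 library and the labels carry no replicate numbers; classes were compared within libraries through the stage block. With 1 pooled library a stage, low epithelial cell numbers and few antagonist UMIs limit what can be read from the stage values.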
